A study of Mus musculus with 9 samples.

Results

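The 36 genes described here encode the machinery of macroautophagy, and they were chosen by symbol from a fixed list of initiation, lipid kinase, membrane, conjugation, Atg8 and cargo receptor genes. All 36 were among the 18571 genes of the deposited table, and all 36 were among the 14696 that passed the filter on low counts. In macroautophagy a double membrane grows around cytoplasm, closes into an autophagosome and fuses with a lysosome. A kinase complex around Ulk1 starts the process, a lipid kinase complex around Pik3c3 marks the growing membrane with phosphatidylinositol 3-phosphate (PI3P), and a pair of ubiquitin-like conjugation systems couples Atg8 proteins (the LC3 and GABARAP families) to it, where cargo receptors bind them. In microglia, the resident macrophages of the brain, parts of the same machinery also act on phagosomes that hold engulfed material, and the pathway is studied in Alzheimer's disease for its place in protein clearance.

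RNA came from cells taken by immunopanning on CD45, a surface protein of all leukocytes, from cortex and hippocampus of 9-month-old mice on the C57BL6/j background. The study asked what connexin 43, the gap junction protein encoded by Gja1, does in microglia of an amyloid model, and it has 3 groups of 3 libraries. WT mice were wild type controls of the same age. APP/PS1 mice carried the amyloid-forming APP/PS1 transgenes. The third group, labelled Cx43 cKO in the plots and shortened to cKO below, was APP/PS1:Cx3cr1-CreER:Cx43-flox/flox, in which the Cx3cr1 promoter drives a tamoxifen-dependent Cre recombinase in microglia and related myeloid cells. Tamoxifen was given by gavage at 0.1 mg per g for 5 days at 8 months of age, per the labels' protocols, which give this for all 3 groups alike. By their labels neither WT nor APP/PS1 mice carried CreER or floxed Cx43, so these alleles and the loss of Cx43 cannot be told apart in the comparisons with cKO. No label says whether the 3 libraries of a group came from separate animals, so the tests measure the spread between these libraries, which may be partly technical. Only RNA was measured, with no readout of autophagosome number or of lysosomal turnover.

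Facts of the whole series bear on every comparison below. Totals ran from 18907681 to 19565354 estimated counts per library. The targeted gene Gja1 had 642 to 716 counts for WT, 688 to 788 for APP/PS1 and 484 to 539 for cKO, lower than in both other groups but not absent. The Y-linked gene Ddx3y had 4137 to 4538 counts in every WT and APP/PS1 library and at most 2 in each cKO library, so the sex of the mice and the knockout cannot be told apart. Levels scaled to library size are given as CPM. The 11 microglial markers were all detected. In APP/PS1 against WT 7 of them were called higher and 3 lower, in cKO against APP/PS1 2 and 7, and in cKO against WT 7 and 4. The summed level of these 11 was 25160 to 25330 CPM for WT, 29590 to 29920 for APP/PS1 and 25510 to 25710 for cKO. The 7 astrocyte markers summed to 432.7 to 443.6, 630 to 650.4 and 485 to 496.3 CPM in the same order, none at 0, with 7 called higher in APP/PS1 than in WT and 6 lower in cKO than in APP/PS1. The 4 erythroid markers summed to 661 to 713.5, 153.2 to 173 and 56.8 to 64.9 CPM, none at 0. Other marker lists moved as well. In cKO against APP/PS1, 5 of 6 vessel, 4 of 4 border macrophage, 5 of 7 neuron, 4 of 6 oligodendrocyte and 3 of 4 T and NK cell markers were lower and 3 of 4 B cell markers higher. In APP/PS1 against WT, 4 of 6 vessel, 3 of 4 border macrophage and 3 of 4 B cell markers were lower and 3 of 4 T and NK cell markers higher, with all 11 dissociation genes lower. In cKO against WT, 6 of 6 vessel, 4 of 4 border macrophage, 4 of 4 erythroid, 4 of 7 neuron, 3 of 4 B cell and 8 of 11 dissociation genes were lower. The 10 monocyte and neutrophil markers summed to 2612 to 2655 CPM for WT, 914 to 940.1 for APP/PS1 and 8394 to 8565 for cKO, none of them at 0, and all 10 were called lower in APP/PS1 than in WT and higher in cKO than in either. The 11 genes of the dissociation response summed to 20120 to 21270 CPM for WT, 16710 to 17620 for APP/PS1 and 17310 to 18280 for cKO. In bulk RNA, fewer cells of a type and less RNA per cell cannot be told apart. The part that these marker differences play in the results below was not tested.

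Levels of the members were compared with each other in TPM, the deposited unit that also divides by transcript length. In WT the cargo receptor Sqstm1 (p62) stood highest at a mean of 1228 TPM, above 99.1% of the tested genes. The 5 Atg8 genes followed at 86.3 TPM (Map1lc3a) to 431.1 TPM (Gabarap), with Tax1bp1, Becn1 and Ulk2 at 128.1, 127.5 and 95.3 TPM. The E2-like enzyme Atg10 stood lowest at 10.5 TPM, still above 41.5% of tested genes. All 5 Atg8 genes stood above the 9 genes of the conjugation class, of which Atg3 at 61.3 TPM was the highest.

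The regulatory sequence of these genes was examined because TFEB and related factors, which drive lysosome and autophagy genes, bind sequences with the core CACGTG. RefSeq promoters on GRCm38.p6, from 250 bases before to 50 bases after the start, were found for 30 of the 36 members. The 6 letters CACGTG, which read the same on both strands, occurred in the promoters of 5 of these 30 genes (16.7%), namely Atg14, Atg3, Atg5, Atg7 and Rubcn, against 8.09% of 27025 genes. The longer palindrome TCACGTGA, which contains the first motif, occurred in Atg3 alone among the 30 (3.33%), against 1.12% of genes. The 120 bases before the annotated start are shown for Atg3 (chr16:45158709-45158828, plus strand) and Atg5 (chr10:44268219-44268338, plus strand), which hold the motif, and for Gabarapl2 (chr8:111940583-111940702, plus strand) and Wipi1 (chr11:109611390-109611509, minus strand), large changers without it. Each reads 5′ to 3′ on the gene's strand, with CACGTG in capitals.
Atg3: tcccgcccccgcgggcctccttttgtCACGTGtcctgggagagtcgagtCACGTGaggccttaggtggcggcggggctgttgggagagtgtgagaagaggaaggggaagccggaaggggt
Atg5: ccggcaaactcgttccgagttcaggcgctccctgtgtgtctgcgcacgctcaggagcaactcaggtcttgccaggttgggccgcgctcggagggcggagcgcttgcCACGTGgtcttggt
Gabarapl2: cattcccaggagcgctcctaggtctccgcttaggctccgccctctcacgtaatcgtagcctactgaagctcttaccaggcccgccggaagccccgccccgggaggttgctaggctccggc
Wipi1: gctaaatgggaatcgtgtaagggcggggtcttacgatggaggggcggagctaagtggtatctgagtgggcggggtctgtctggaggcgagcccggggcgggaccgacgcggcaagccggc
The motif of Atg5 lies 14 to 9 bases before the start, and those of Atg3 lie 94 to 89 and 71 to 66 bases before it. That of Rubcn lies in a promoter inside the gene (chr16:32868317-32868616), and its other promoter, at the gene's 5′ end (chr16:32877730-32877849), lacks it. The Atg7 promoter (chr6:114670846-114671145) also lies inside the gene, which begins at chr6:114643127. Among the 5 genes with the motif, Atg5 rose in APP/PS1 against WT, Atg7, Atg3, Atg14 and Rubcn were not called there, and Atg7 and Rubcn rose while Atg5 fell in cKO against APP/PS1. A match of letters is a description of the sequence and not of binding.

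Most members differed between APP/PS1 and WT, but by small amounts. By the edgeR quasi-likelihood test with Benjamini-Hochberg adjustment over all 14696 genes at 0.05, 12 of 36 members were higher in APP/PS1 (33.3%, against 26.9% of all genes) and 15 were lower (41.7%, against 32.0%). At least 1.5-fold changes were called for 3 members. Atg10 and Gabarapl2 were higher (11.7% of all genes were higher by that much) and Pik3c3 was lower (7.63% of all genes). The members' median log2 change was -0.088, beside -0.036 for all genes. The split between directions depended on scaling. Of all genes called, 45.7% were higher with TMM scaling, 29.5% with plain library totals, 30.2% with deposited FPKM and 14.7% with deposited TPM, and the median of all genes moved to -0.17, -0.11 and -0.35 in these. The members' 12 higher and 15 lower became 5 and 24 with library totals or FPKM and 2 and 31 with TPM. Called and not called refer below to edgeR with TMM scaling unless another setting is named.

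In cKO against APP/PS1 the members leaned upwards, with 18 higher (50%, against 27.3% of all genes) and 6 lower (16.7%, against 27.7%). At least 1.5-fold changes were called higher for Pik3c3 and Wipi1 (7.36% of all genes) and lower for Atg10 (10.1% of all genes). The members' median was 0.11, beside -0.011 for all genes. On the TPM scale 29 members were higher and 2 lower, and 75.3% of all genes called were higher, against 49.6% with TMM scaling. In cKO against WT, 10 members were higher (27.8%, against 24.7%) and 7 lower (19.4%, against 23.0%), shares near those of all genes. The receptor Optn was the single member higher by at least 1.5-fold, where 6.68% of all genes were, and no member was lower by that much, where 6.1% of all genes were. The members' median was 0.047, beside -0.0086 for all genes. Of all genes called in that comparison, 51.9% were higher with TMM scaling, 30.4% with library totals, 32.0% with FPKM and 19.8% with TPM. The members gave 7 higher and 13 lower, 5 and 11, and 4 and 17 in these. Each pair of these comparisons shares a group, so they are not independent of one another.

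**Figure D1:**
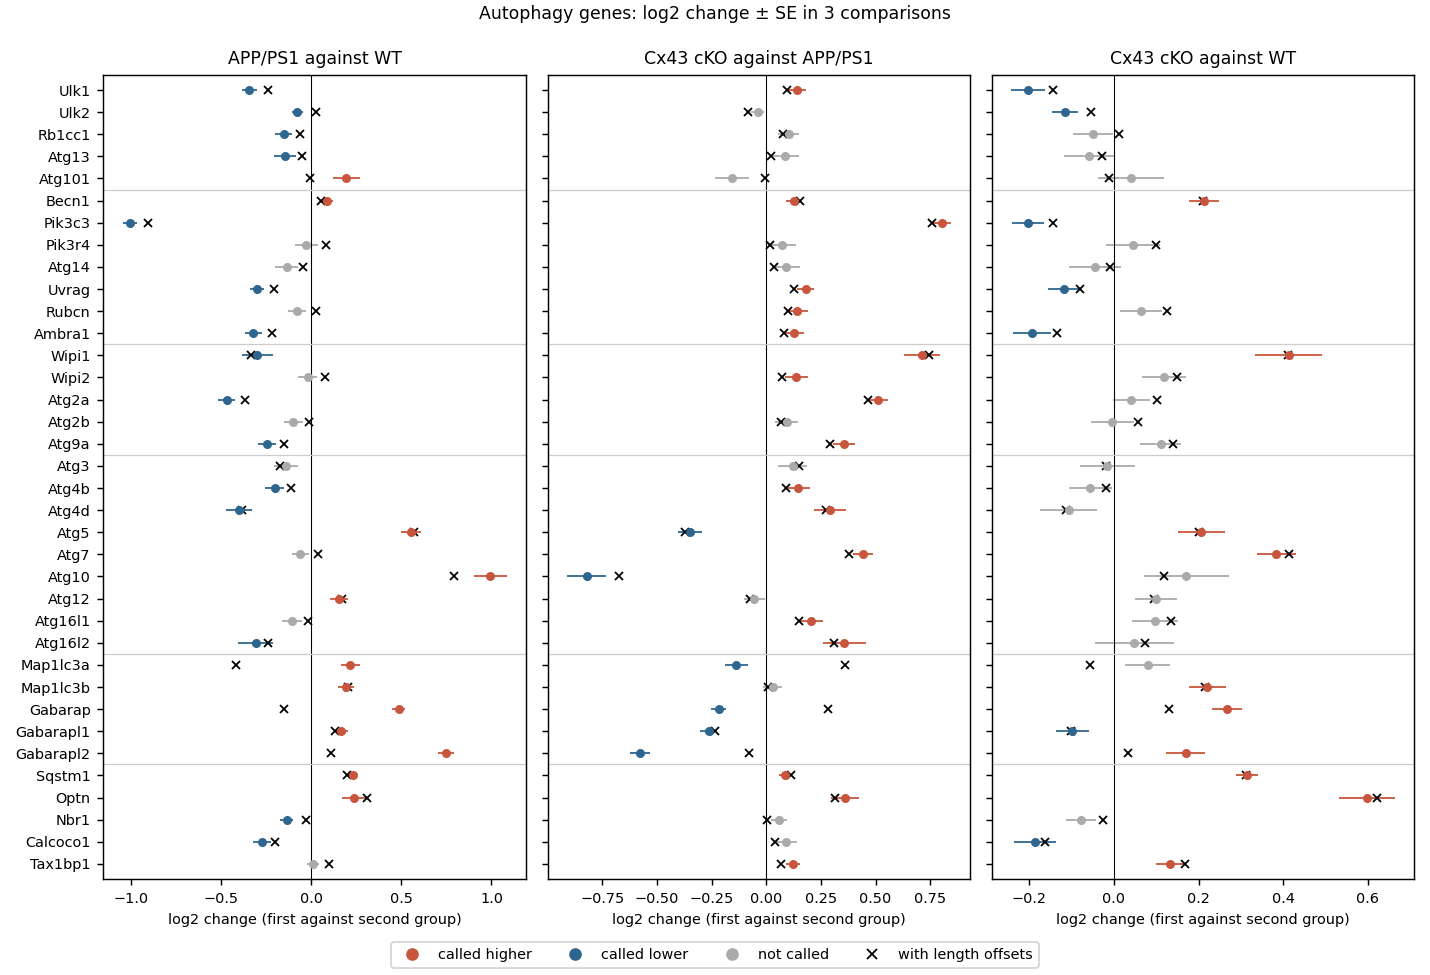
Log2 change of each of the 36 members (circles, with bars of 1 SE, 3 libraries a group) in the 3 comparisons, coloured by call, beside the value with length offsets (crosses). Horizontal lines part the classes from the ULK complex at the top to the cargo receptors at the bottom. Pik3c3 and Atg10 lie farthest from 0 in the first comparison and on the opposite sides in the second, and the crosses of Map1lc3a and Gabarap lie on the other side of 0 from their circles in both.

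By the order of single libraries, 13 members had all 3 APP/PS1 libraries below the other 6 (36.1%, against 20% of all tested genes). They were Ulk1, Pik3c3, Uvrag, Ambra1, Wipi1, Atg2a, Atg9a, Atg4b, Atg4d, Atg7, Atg16l1, Atg16l2 and Nbr1. Another 5 had all APP/PS1 libraries above the other 6 (13.9%, against 19.5%), namely Atg5, Atg10, Gabarap, Gabarapl1 and Gabarapl2. cKO libraries stood above the other 6 for 10 members (27.8%, against 14.3%) and below them for Gabarapl1 alone (2.78%, against 10.9%). WT libraries stood below the rest for 7 members (19.4%, against 15.4%) and above the rest for 6 (16.7%, against 16.3%). Several marker sums set a group apart as well. The APP/PS1 libraries were the lowest of the 9 in monocyte and neutrophil and in B cell markers. They were the highest in microglial, astrocyte and T and NK cell markers. The cKO libraries were the highest in monocyte and neutrophil markers and the lowest in vessel, border macrophage, neuron and erythroid markers. The part these play in the order of the members was not tested.

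The ULK complex, which starts autophagosome formation, had 4 of its 5 members lower and 1 higher in APP/PS1 than in WT. But with length offsets, which remove the median of each bin of transcript length as described below, only Ulk1 was lower and none was higher. Of all genes 32.0% were lower and 26.9% higher in that comparison, or 27.9% and 26.5% with the offsets. Ulk1, the kinase itself, stood at 95.0, 96.2 and 100.1 CPM for WT, at 74.4, 79.4 and 75.8 for APP/PS1 and at 83.9, 87.9 and 81.2 for cKO. The 3 groups did not overlap, with WT high, APP/PS1 low and cKO between them. Ulk1 fell in APP/PS1 by 0.34 ± 0.041 (log2, SE; edgeR adjusted p = 4.9e-08), was higher in cKO than in APP/PS1 by 0.14 ± 0.041 (edgeR adjusted p = 0.0056; 0.096 and not called with length offsets) and remained below WT there, at -0.20 ± 0.040 (edgeR adjusted p = 0.00014). Its paralog Ulk2 fell by 0.076 ± 0.030 in APP/PS1, the scaffold Rb1cc1 (FIP200) by 0.15 ± 0.048 and the adaptor Atg13 by 0.15 ± 0.060. With the offsets these were 0.028, -0.064 and -0.050, none of them called. Atg101, which stabilises Atg13, was 15.8, 16.8 and 17.3 CPM in WT and 16.8, 21.2 and 19.1 in APP/PS1. Its groups overlapped, and its log2 change of 0.20 ± 0.077 (edgeR adjusted p = 0.032) turned to -0.0075 with length offsets and -0.18 on the TPM scale. Leaving out single libraries ended the calls of Ulk2 (APP/PS1 1 or 2, WT 1 or 3; -0.061 to -0.081), Atg13 (the same 4 libraries; -0.11 to -0.16) and Atg101 (APP/PS1 2 or 3, WT 1 or 2; 0.11 to 0.20). In cKO against APP/PS1 the other 4 members were not called, with log2 changes of -0.155 to 0.10. Other settings called some of them, Rb1cc1 without cKO 3 (0.14) or with library totals (0.13), Atg101 without APP/PS1 1 (-0.24) and Ulk2 with length offsets (-0.083), and TPM called Rb1cc1, Ulk2 and Atg13 higher. Against WT, Ulk1 and Ulk2 (-0.11 ± 0.030; -0.055 and not called with length offsets) were lower in cKO and the other 3 were not called.

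The lipid kinase complex held the member with the lowest log2 change in APP/PS1. Pik3c3 (VPS34), the catalytic subunit that makes PI3P, had 115.1, 124.5 and 118.8 CPM for WT, 58.9, 61.8 and 57.7 for APP/PS1 and 103.0, 105.5 and 102.8 for cKO. All APP/PS1 libraries lay at about the same low level, and no groups overlapped. The fall in APP/PS1 was 1.01 ± 0.040 on the log2 scale (edgeR adjusted p = 1.2e-17), and the rise in cKO over APP/PS1 was 0.80 ± 0.041 (edgeR adjusted p = 2.9e-15), with a remaining difference from WT of -0.20 ± 0.038 (edgeR adjusted p = 6.7e-05). With length offsets the first 2 values were -0.90 and 0.76. Its partners did not follow in size. Pik3r4 (VPS15), its regulatory subunit, was not called in any comparison, with values of -0.028, 0.074 and 0.045. Atg14, which directs the complex to autophagosomes, was not called either, at -0.14, 0.090 and -0.045, though the first was called with the replicate block (-0.14; edgeR adjusted p = 0.045). Uvrag, the subunit of the endosomal form, fell by 0.30 ± 0.039 in APP/PS1 and rose by 0.18 ± 0.040 in cKO over APP/PS1. Against WT it stood at -0.12 ± 0.038 in cKO, a call that ended without cKO 3 (-0.11) and with length offsets (-0.081).

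Becn1 (Beclin 1), the scaffold shared by both forms of that complex, stood at 97.4, 101.2 and 101.3 CPM for WT, 103.2, 105.9 and 109.5 for APP/PS1 and 115.4, 116.7 and 115.5 for cKO. The groups did not overlap, and cKO was highest. It was 0.21 ± 0.035 higher in cKO than in WT (edgeR adjusted p = 1.5e-05) and 0.13 ± 0.036 higher than in APP/PS1 (edgeR adjusted p = 0.0039), though the value against WT was -0.0056 on the TPM scale. Its rise of 0.087 ± 0.036 in APP/PS1 over WT (edgeR adjusted p = 0.039) had the opposite sign with library totals (-0.050), FPKM (-0.086) and TPM (-0.34), and its call ended with length offsets (0.054) and without APP/PS1 2 or 3 or any 1 of the WT libraries (0.064 to 0.10). Ambra1, a Beclin 1 activator, had 56.9, 58.2 and 61.4 CPM for WT, 45.7, 48.4 and 47.3 for APP/PS1 and 49.8, 53.7 and 50.9 for cKO. Its groups were also separate, lowest in APP/PS1. It fell by 0.32 ± 0.047 in APP/PS1 (edgeR adjusted p = 1.4e-06), and its rise in cKO over APP/PS1, 0.13 ± 0.048 (edgeR adjusted p = 0.026), was not called without cKO 2, APP/PS1 1 or APP/PS1 3 (0.094 to 0.13) or with length offsets (0.083). Rubcn, an inhibitor of the endosomal form, was higher in cKO than in APP/PS1 by 0.14 ± 0.050, a call that ended without APP/PS1 1 or 3 (0.11 and 0.14) and with length offsets (0.098). In all, 1 of the 7 kinase complex genes rose and 3 fell in APP/PS1, and 5 rose and none fell in cKO against APP/PS1. With length offsets none rose and 3 fell in the first comparison, and 3 rose in the second. The shares of all genes were 26.9% higher and 32.0% lower in the first and 27.3% and 27.7% in the second, so the 3 of 7 lower in APP/PS1 lay near them. Against WT, Becn1 was higher in cKO and Pik3c3, Uvrag and Ambra1 (-0.19 ± 0.046) were lower.

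The PI3P effectors and lipid transfer proteins, which build the membrane, had 3 of 5 genes lower and none higher in APP/PS1 (against 32.0% and 26.9% of all genes), and 4 higher and none lower in cKO against APP/PS1 (27.3% and 27.7%). With length offsets these were 3 lower and 3 higher. Wipi1, which binds PI3P on the growing membrane, had 12.3, 11.8 and 12.0 CPM for WT, 9.61, 8.83 and 10.8 for APP/PS1 and 16.3, 16.7 and 14.96 for cKO. The order APP/PS1, WT, cKO held for every library. Its log2 changes were -0.30 ± 0.087 in APP/PS1 against WT (edgeR adjusted p = 0.0044), 0.71 ± 0.083 in cKO against APP/PS1 (edgeR adjusted p = 4.8e-08) and 0.41 ± 0.079 against WT (edgeR adjusted p = 9.2e-05). Atg2a, which carries lipids into the membrane, had 75.2, 79.8 and 74.4 CPM for WT, 53.0, 55.3 and 57.3 for APP/PS1 and 77.7, 82.4 and 76.0 for cKO. WT and cKO overlapped and APP/PS1 lay below both. Atg2a fell by 0.47 ± 0.045 in APP/PS1 (edgeR adjusted p = 1.1e-09) and rose by 0.51 ± 0.045 in cKO over APP/PS1 (edgeR adjusted p = 2.8e-10). The scramblase Atg9a, the transmembrane member of the group, fell by 0.25 ± 0.051 and rose by 0.36 ± 0.050 in the same comparisons. Wipi2, a Wipi1 paralog that recruits Atg16l1, was not called in APP/PS1 (-0.019 ± 0.053) and was 0.14 ± 0.052 higher in cKO than in APP/PS1, a call that ended without cKO 1, cKO 3 or APP/PS1 1 (0.078 to 0.13) and with length offsets (0.072). Atg2b, the Atg2a paralog, was not called in any comparison. Against WT, Wipi1 was called in cKO and the others were not. Wipi2 (0.12) and Atg9a (0.11) were called higher there with the replicate block (edgeR adjusted p = 0.023 and 0.015) and with length offsets (0.15 and 0.14), Wipi2 also without APP/PS1 1 (0.12) or WT 1 (0.14), and Atg9a without WT 1 (0.14).

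**Figure D2:**
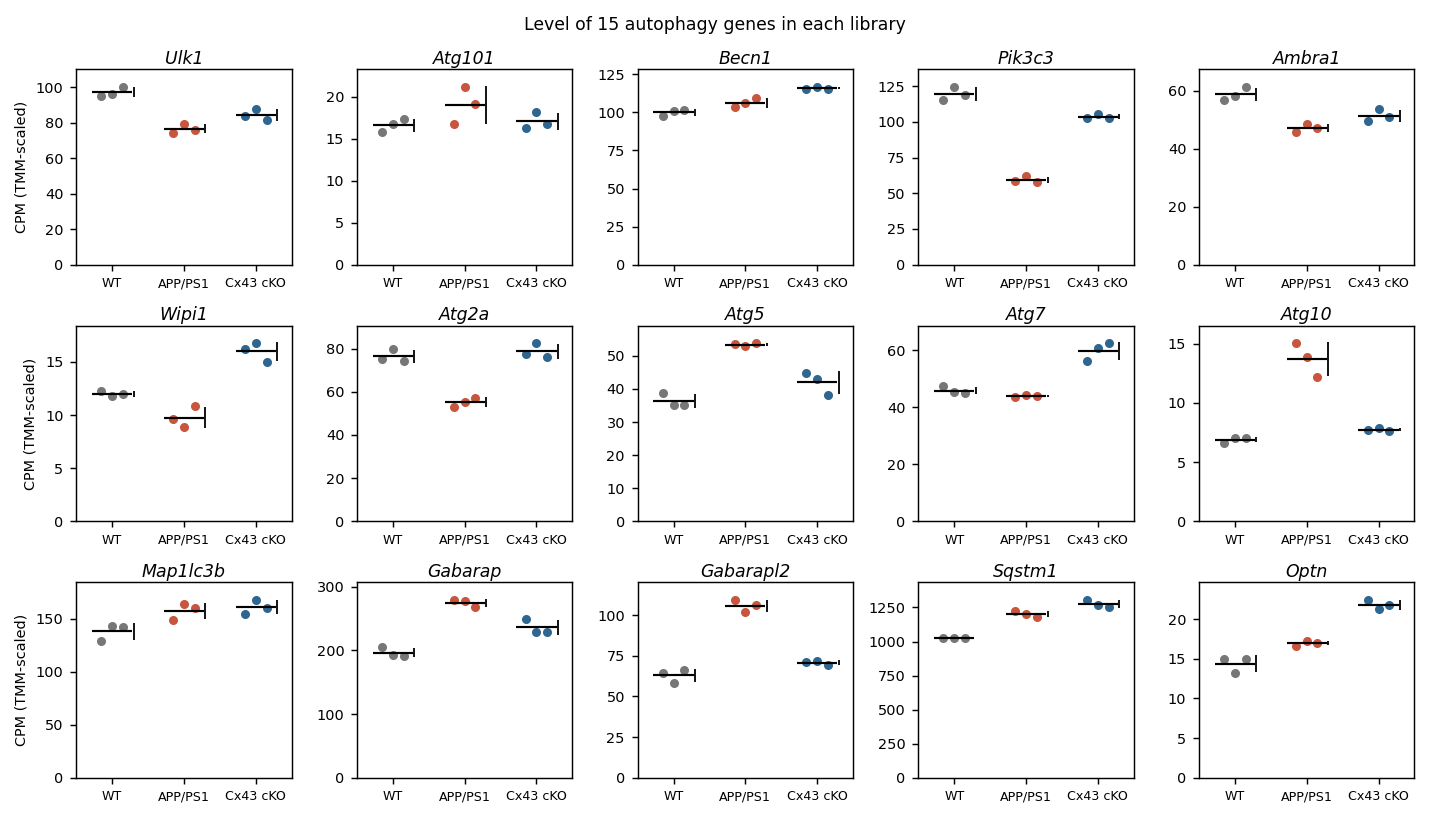
Level of 15 members in each of the 9 libraries, in CPM with TMM-scaled library sizes, on axes that start at 0. Points are libraries, horizontal lines group means and vertical bars 1 SD. In APP/PS1, Pik3c3 and Atg2a sit below and Atg10, Atg5 and Gabarapl2 above the other groups, while Optn and Atg7 are highest in cKO.

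The 9 conjugation genes moved both ways, with 3 higher and 3 lower in APP/PS1 than in WT and 5 higher and 2 lower in cKO than in APP/PS1. The first counts lay near the shares of all genes, 26.9% and 32.0%, and the second stood beside 27.3% and 27.7%. Atg10, the E2-like enzyme that joins Atg12 to Atg5, had 6.64, 6.995 and 7.003 CPM for WT, 15.02, 13.9 and 12.2 for APP/PS1 and 7.74, 7.90 and 7.61 for cKO. APP/PS1 lay far above both other groups, which did not overlap each other. It rose by 0.99 ± 0.092 in APP/PS1 (edgeR adjusted p = 5.2e-10) and fell by 0.82 ± 0.091 in cKO against APP/PS1 (edgeR adjusted p = 1.7e-08), and the difference between cKO and WT, 0.17 ± 0.10, was not called (edgeR adjusted p = 0.17). With length offsets these were 0.79, -0.67 and 0.12. Atg5, the acceptor of Atg12, had 38.7, 35.2 and 35.2 CPM for WT, 53.6, 53.0 and 53.8 for APP/PS1 and 44.8, 43.1 and 38.1 for cKO. APP/PS1 was again apart and above, with WT and cKO overlapping. The rise in APP/PS1 was 0.56 ± 0.055 (edgeR adjusted p = 1.7e-09; 0.13 and not called on the TPM scale) and the fall in cKO against APP/PS1 was 0.35 ± 0.054 (edgeR adjusted p = 4.3e-06; -0.13 and not called on the TPM scale). The rise over WT in cKO, 0.21 ± 0.056 (edgeR adjusted p = 0.0034), was -0.0018 on the TPM scale. Atg12 itself was called in APP/PS1 against WT (0.15 ± 0.050; -0.24 on the TPM scale), but not without APP/PS1 3 (0.13). It was not called in cKO against WT (0.10), but was with the replicate block (edgeR adjusted p = 0.044) and without cKO 2 (0.14). In cKO against APP/PS1 it was -0.054 and not called, against 0.14 and called on the TPM scale.

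Atg7, the E1-like enzyme that activates both Atg12 and the Atg8 proteins, had 47.4, 45.2 and 44.9 CPM for WT, 43.5, 44.3 and 44.0 for APP/PS1 and 56.1, 60.8 and 62.4 for cKO. cKO stood apart and above, and WT and APP/PS1 were close to each other. It was not called in APP/PS1 against WT (-0.059 ± 0.049; edgeR adjusted p = 0.31) and was higher in cKO by 0.44 ± 0.047 against APP/PS1 (edgeR adjusted p = 1.0e-08) and 0.38 ± 0.047 against WT (edgeR adjusted p = 1.2e-07). The proteases Atg4b and Atg4d, which trim Atg8 proteins and release them from membrane, fell in APP/PS1 by 0.20 ± 0.053 and 0.40 ± 0.071. Both were higher in cKO than in APP/PS1, by 0.15 ± 0.053 and 0.29 ± 0.073, the former not without cKO 2, cKO 3 or APP/PS1 3 (0.10 to 0.14). With length offsets Atg4b was not called in either (-0.11 and 0.090). Atg16l1, which places the conjugation complex on the membrane, rose by 0.20 ± 0.057 in cKO over APP/PS1, and its paralog Atg16l2 by 0.36 ± 0.099 after a fall of 0.31 ± 0.099 in APP/PS1 that was not called without APP/PS1 1 or WT 3 (-0.24 in each). With the replicate block neither Atg16l2 value was called (edgeR adjusted p = 0.12 for APP/PS1 against WT and 0.083 for cKO against APP/PS1). Atg3, the E2-like enzyme for Atg8 proteins, was not called in any comparison (-0.14, 0.12 and -0.016), but the replicate block called the first, lower in APP/PS1 (edgeR adjusted p = 0.0016), and the second, higher in cKO (edgeR adjusted p = 0.0062). With a single library left out it was called in APP/PS1 against WT (without APP/PS1 1, -0.21, or WT 2, -0.19) and in cKO against APP/PS1 (without APP/PS1 1, 0.19).

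All 5 Atg8 genes rose in APP/PS1 and 4 of 5 fell in cKO against APP/PS1 with TMM scaling, but with length offsets Map1lc3a and Gabarap had the opposite sign in both comparisons, and on the TPM scale Map1lc3a, Map1lc3b and Gabarapl1 did so in the first and Map1lc3a in the second. Of all genes 26.9% were higher in the first and 27.7% lower in the second. Gabarapl2 had 64.2, 58.4 and 66.2 CPM for WT, 109.3, 101.6 and 106.0 for APP/PS1 and 71.0, 72.0 and 69.4 for cKO. Gabarap had 204.8, 192.8 and 191.4 CPM for WT, 279.2, 277.5 and 267.4 for APP/PS1 and 249.8, 229.5 and 229.6 for cKO. For both genes, GABARAP family members that act in autophagosome closure and fusion, WT was lowest and APP/PS1 highest with no overlap. Gabarapl2 rose by 0.75 ± 0.044 in APP/PS1 (edgeR adjusted p = 5.4e-14) and fell by 0.58 ± 0.044 in cKO against APP/PS1 (edgeR adjusted p = 1.3e-11). Gabarap changed by 0.48 ± 0.036 (edgeR adjusted p = 6.3e-12) and -0.22 ± 0.036 (edgeR adjusted p = 9.7e-06), with 0.092 and -0.023 on the TPM scale, neither called. Map1lc3a, the second LC3 gene, changed by 0.22 ± 0.053 and -0.14 ± 0.053, and its second call ended without cKO 1 or 3 or APP/PS1 2 or 3 (-0.11 to -0.13). In cKO against WT, Gabarap (0.27 ± 0.036), Map1lc3b and Gabarapl2 (0.17 ± 0.046) were higher. On the TPM scale none of these was called (0.069, 0.024 and -0.026), and with length offsets Gabarap was 0.13 and Gabarapl2 0.033, the latter not called. Gabarapl1 was lower there, at -0.098 ± 0.039, and was not called without cKO 1 or 2 or WT 2 or 3 (-0.078 to -0.10).

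Transcript length moved with these values. In the shortest 10th part of all tested genes, with a median length of 881 nt, the median log2 change was 0.61 in APP/PS1 against WT, -0.51 in cKO against APP/PS1 and 0.17 in cKO against WT. In the longest, with a median of 7950 nt, it was -0.092, 0.014 and -0.059. Gabarapl2 (931 nt), Map1lc3a (996 nt) and Gabarap (1073 nt) are shorter than all but 5.75%, 6.85% and 8.17% of tested genes. With offsets that remove the median of each of 10 length bins in each library, Gabarapl2 was 0.11 in APP/PS1 against WT (edgeR adjusted p = 0.040) and -0.079 in cKO against APP/PS1 (edgeR adjusted p = 0.15), Gabarap was -0.15 and 0.28, and Map1lc3a was -0.42 and 0.36. A trend inside a bin stays, and in APP/PS1 against WT the median fell from 0.61 in the shortest bin to 0.17 in the next (1428 nt). Map1lc3a and Gabarap are longer than the median of the shortest bin. The part this plays in their opposite signs was not tested. The longer Gabarapl1 (1724 nt) kept its values, 0.17 ± 0.038 and -0.26 ± 0.039 without the offsets and 0.13 and -0.23 with them, though the second was -0.068 and not called on the TPM scale. Over all members the offsets left 9 higher and 12 lower in APP/PS1 (25% and 33.3%, against 26.5% and 27.9% of all genes), 14 and 4 in cKO against APP/PS1 (38.9% and 11.1%, against 26.3% and 25.8%), and 13 and 5 in cKO against WT (36.1% and 13.9%, against 25.5% and 20.5%).

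**Figure D3:**
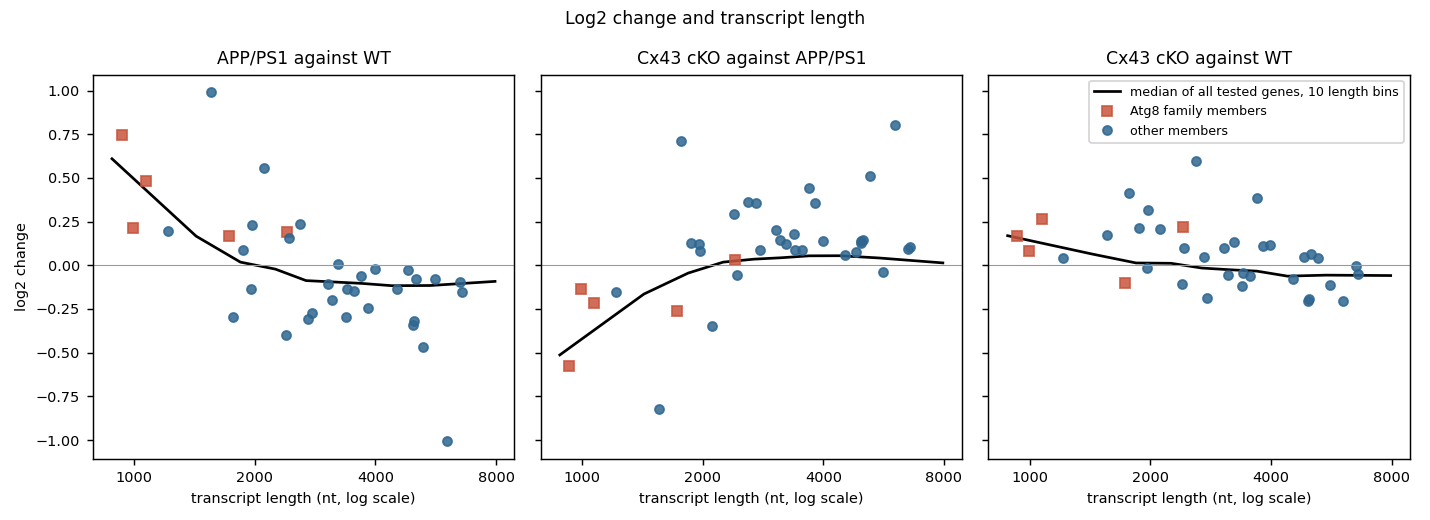
Log2 change of the 36 members against transcript length (nt, log axis) in the 3 comparisons, Atg8 genes as squares and the others as circles, with the median of all tested genes in 10 length bins as a line. The 3 shortest members are Atg8 genes and lie where the line is steepest, while Pik3c3, at 6039 nt, lies far from the line in the first and second comparison.

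Map1lc3b, the LC3 gene most used as an autophagosome marker at the protein level, is 2412 nt long and was little moved by the offsets. It had 128.8, 143.0 and 142.5 CPM for WT, 149.0, 163.9 and 160.0 for APP/PS1 and 154.5, 167.8 and 160.5 for cKO. Both disease-model groups lay above WT and overlapped each other. It rose by 0.19 ± 0.044 in APP/PS1 (edgeR adjusted p = 0.00088; -0.20 on the TPM scale) and was 0.22 ± 0.044 above WT in cKO (edgeR adjusted p = 0.00029), with no call between cKO and APP/PS1 (0.030 ± 0.044; edgeR adjusted p = 0.59). On the TPM scale the comparison with WT was 0.024 and not called, and that with APP/PS1 was 0.22 and called. The strand setting of the counting is not given, and on the annotation 14 members overlap another gene (Rb1cc1, Becn1, Pik3r4, Uvrag, Rubcn, Wipi1, Atg4d, Atg5, Atg7, Atg10, Atg12, Atg16l1, Map1lc3b and Gabarapl1), so reads of these may be mixed with those of the other gene. For 5 of them the other gene codes for a protein, Cntd1 for Becn1, Fyttd1 for Rubcn, Kri1 for Atg4d, Ap3s1 for Atg12 and Zcchc14 for Map1lc3b.

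On the TPM scale, the sum of the 5 Atg8 genes differed little between groups, at 941.9 ± 11.2 for WT, 968.1 ± 6.61 for APP/PS1 and 931.4 ± 20.04 for cKO (SD, n = 3). With TMM scaling all 5 genes were called higher in APP/PS1 than in WT, so the likeness is that of the TPM sum. The LC3 genes (Map1lc3a and Map1lc3b) made up 22.3%, 24.7% and 23.4% of that sum for WT, 18.9%, 20.6% and 20.5% for APP/PS1 and 22.0%, 24.4% and 23.4% for cKO. APP/PS1 lay below both other groups, which overlapped. The difference from WT was -3.48 percentage points in APP/PS1 (exact permutation p = 0.1, two-sided, 0.15 adjusted over 3 comparisons) and -0.22 points in cKO (exact permutation p = 0.7), and cKO exceeded APP/PS1 by 3.26 points (exact permutation p = 0.1, 0.15 adjusted). With 3 libraries against 3 no exact p can be under 0.1. The difference in LC3 share was not seen with a correction by length bin. With each library's TPM divided by its median deviation in the gene's length bin, a setting chosen after seeing the data, the share was 21.1%, 23.4% and 22.0% for WT, 21.2%, 22.9% and 22.6% for APP/PS1 and 21.3%, 23.6% and 22.6% for cKO. All 3 groups then overlapped, with differences of 0.095, 0.26 and 0.36 points. Without that correction Gabarapl2 alone went from 16.9% ± 1.00 of the sum in WT to 21.0% ± 0.892 in APP/PS1 and 16.8% ± 0.331 in cKO (SD, n = 3), and with it the libraries gave 16.6% to 18.69%, 18.68% to 20.4% and 16.8% to 17.5%.

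**Figure D4:**
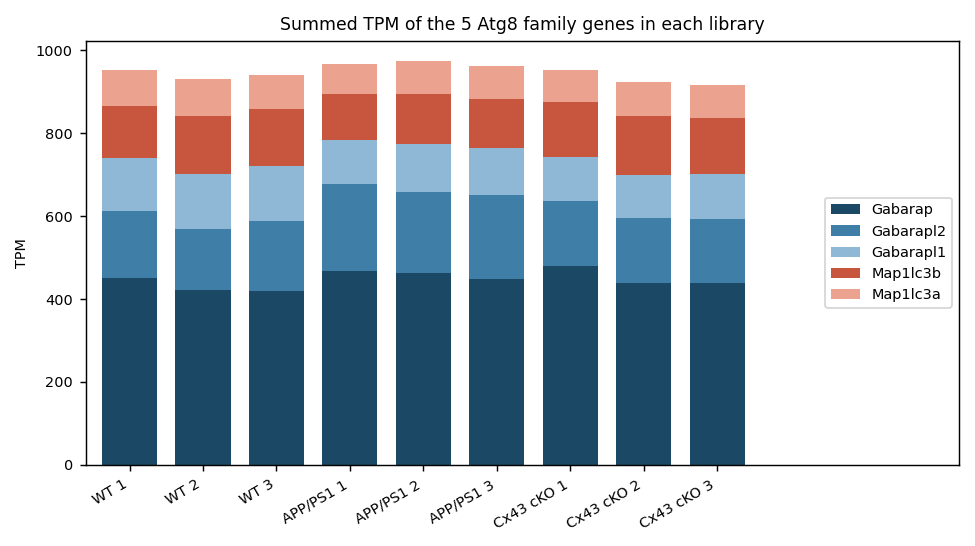
Summed TPM of the 5 Atg8 genes in each library, stacked by gene, GABARAP family in blue and LC3 family in red. On the TPM scale the sums are similar in all libraries, and the Gabarapl2 band is widest in the 3 APP/PS1 libraries.

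Ratios of TPM between paralogs do not depend on the scaling between libraries, but they do depend on the length trend where a pair differs in length. Of 21 ratios compared (7 pairs in 3 comparisons), 11 reached the smallest exact permutation p of 0.1 and none passed after adjustment (0.19). Wipi1 to Wipi2 was 0.61 to 0.62 for WT, 0.43 to 0.55 for APP/PS1 and 0.69 to 0.80 for cKO. Gabarapl1 to Gabarapl2 was 0.79 to 0.89 for WT, 0.50 to 0.59 for APP/PS1 and 0.65 to 0.71 for cKO. The 3 groups were separate in both ratios. With the length correction those of Wipi1 to Wipi2 stayed separate, at 0.63 to 0.64, 0.40 to 0.52 and 0.71 to 0.81. Those of Gabarapl1 to Gabarapl2 did not, at 0.66 to 0.75 for WT, 0.65 to 0.75 for APP/PS1 and 0.60 to 0.65 for cKO. APP/PS1 then overlapped both other groups, and the log2 difference between APP/PS1 and WT went from -0.58 to 0.018. For Map1lc3b to Map1lc3a the correction moved the log2 difference in the same direction, but away from 0, from -0.024 to 0.63 in APP/PS1 against WT. In cKO against APP/PS1 it went from 0.16 to -0.35. The corrected ratios were 1.21 to 1.44 for WT, 2.004 to 2.036 for APP/PS1 and 1.55 to 1.61 for cKO.

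The cargo receptors, which link ubiquitinated or damaged cargo to Atg8 proteins, had 2 members higher and 2 lower in APP/PS1, and 3 higher in cKO against APP/PS1, or 3 higher and 1 lower, then 2 higher, with length offsets. Of all genes 26.9% were higher and 32.0% lower in the first comparison and 27.3% higher in the second. Sqstm1, both a receptor and itself degraded by autophagy, had 1026, 1028 and 1023 CPM for WT, 1223, 1202 and 1183 for APP/PS1 and 1305, 1269 and 1251 for cKO. The groups rose in that order without overlap. Its log2 changes were 0.23 ± 0.026 in APP/PS1 against WT (edgeR adjusted p = 2.3e-08; -0.16 on the TPM scale), 0.084 ± 0.026 in cKO against APP/PS1 (edgeR adjusted p = 0.0075; 0.070 and not called without APP/PS1 3) and 0.31 ± 0.026 in cKO against WT (edgeR adjusted p = 1.1e-10). Optn (optineurin), a receptor for damaged mitochondria and bacteria, had 14.98, 13.2 and 14.99 CPM for WT, 16.7, 17.2 and 17.0 for APP/PS1 and 22.4, 21.2 and 21.7 for cKO. It kept the same order without overlap. It rose by 0.24 ± 0.070 in APP/PS1 (edgeR adjusted p = 0.0048; -0.13 on the TPM scale), by 0.36 ± 0.066 in cKO over APP/PS1 (edgeR adjusted p = 4.0e-05) and by 0.60 ± 0.066 in cKO over WT (edgeR adjusted p = 2.6e-08), a change just past 1.5-fold that was under it without cKO 1 (0.58) or WT 2 (0.54). Calcoco1, a receptor for the endoplasmic reticulum, fell by 0.27 ± 0.050 in APP/PS1 and was 0.19 ± 0.050 below WT in cKO, and Nbr1, a partner of Sqstm1, fell by 0.14 ± 0.036 in APP/PS1 (-0.028 and not called with length offsets). In cKO against WT Nbr1 was not called (-0.078), but it was with the replicate block (edgeR adjusted p = 0.0097), library totals (-0.19), FPKM (-0.18) and TPM (-0.27) and without WT 3 (-0.11). Tax1bp1 was not called in APP/PS1 against WT (0.0080 ± 0.033) and was higher in cKO by 0.12 ± 0.033 against APP/PS1 and 0.13 ± 0.033 against WT, the latter with the opposite sign on the TPM scale (-0.065). With length offsets it was called higher in APP/PS1 than in WT (0.099) and not called in cKO against APP/PS1 (0.069).

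Some calls held under every alternative setting tried other than the omission of a library. In APP/PS1 against WT they were Atg10 and Gabarapl2, higher, and Ulk1, Pik3c3, Uvrag, Ambra1, Wipi1, Atg2a, Atg9a, Atg4d and Calcoco1, lower. In cKO against APP/PS1 these were 11 higher genes (Becn1, Pik3c3, Uvrag, Wipi1, Atg2a, Atg9a, Atg4d, Atg7, Atg16l1, Sqstm1 and Optn) and Atg10, lower. In cKO against WT they were Wipi1, Atg7, Sqstm1 and Optn, higher, and Ulk1, Pik3c3, Ambra1 and Calcoco1, lower. The share of all genes whose calls held in the same way is not given here, so these lists are not set against it.

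Another 62 genes of the pathway, upstream regulators, fusion factors and organelle receptors, were read beside the members, and 61 were tested. In APP/PS1 against WT 22 were higher and 24 lower (36.1% and 39.3%, against 26.9% and 32.0% of all genes), in cKO against APP/PS1 24 and 15 (39.3% and 24.6%, against 27.3% and 27.7%), and in cKO against WT 23 and 16 (37.7% and 26.2%, against 24.7% and 23.0%). On the TPM scale these were 9 and 48, 43 and 9, and 8 and 32, where 14.7%, 75.3% and 19.8% of all genes called were higher. Lamtor4 and Lamtor2 belong to Ragulator, which holds mTORC1, the kinase that restrains the ULK complex, at the lysosome. Lamtor4 rose by 1.504 ± 0.075 and Lamtor2 by 1.18 ± 0.053 in APP/PS1, and they fell by 0.97 ± 0.072 and 0.92 ± 0.052 in cKO against APP/PS1, with length offsets 0.87 and 0.54, then -0.47 and -0.42. Lamtor5 fell by 0.61 ± 0.055 in cKO against APP/PS1, where it was -0.11 and not called with the offsets. The mTORC1 subunit Mlst8 fell by 0.94 ± 0.078 in APP/PS1, while Mtor itself fell by 0.21 ± 0.049 there and was not called in cKO against APP/PS1 (0.098) or WT (-0.11), though both were with the replicate block (edgeR adjusted p = 0.035 and 0.015) and with library totals (0.13 and -0.22).

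Bnip3, a receptor for mitochondria, rose by 1.34 ± 0.053 in APP/PS1 and was 0.95 ± 0.054 above WT in cKO, values that changed little with length offsets (1.30 and 0.94). Vamp8, a SNARE of autophagosome fusion, rose by 0.95 ± 0.040 in APP/PS1 and fell by 0.80 ± 0.040 in cKO against APP/PS1 (0.31 and -0.30 with the offsets). Bcl2, which binds and restrains Beclin 1, and Tecpr1, a tether of autophagosomes and lysosomes, were 0.92 ± 0.058 and 0.75 ± 0.052 above WT in cKO, and 0.60 ± 0.061 and 0.58 ± 0.053 above it in APP/PS1, where both were also called. Of the AMPK subunits, which sense energy and activate Ulk1, Prkaa2 was lower in cKO by 0.82 ± 0.097 against APP/PS1 and 0.65 ± 0.097 against WT, and Prkab2 was 0.61 ± 0.044 below WT in cKO and 0.66 ± 0.044 below it in APP/PS1, with no call between these 2 groups (0.053 ± 0.047). The transcription factor gene Tfeb fell by 0.45 ± 0.057 in APP/PS1 and was 0.31 ± 0.056 below WT in cKO, with a call of 0.14 ± 0.060 between cKO and APP/PS1, groups that overlapped (edgeR adjusted p = 0.048; 0.12 and not called with length offsets).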

How the data were processed

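Poly-A RNA from 9 libraries was read on a DNBSEQ machine as single-end reads of 50 nt, per the labels' protocols. The labelled genotype set each library's group. For every gene and library the deposited table has an estimated count, which carries decimals and is unscaled, per the file headers. Beside it stand deposited FPKM values, per kilobase and library size, and deposited TPM values, whose sums are equal in all libraries. A deposited normalised signal, the count multiplied by a factor for the library, was not tested. HISAT, Bowtie2, DESeq2 and GRCm38.p6 are named in the submitters' processing notes. Their versions and roles, the counting program and the strand setting are not given in the sources used here.

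The design had assumed whole counts, so the deposited estimated counts were rounded first. They were tested with the edgeR 4.0.16 quasi-likelihood test (R 4.3.3), using TMM scaling, the filter filterByExpr and robust dispersion, with all groups fitted together. Adjusted p follows Benjamini and Hochberg over 14696 genes, and a call is an adjusted p under 0.05. The biological coefficient of variation was 3.14%, or 0.988% with the replicate block. The SE is the log2 change divided by the square root of its F statistic. Length offsets scale each library within 10 bins of transcript length, taken from counts and FPKM. Shares and ratios used deposited TPM and two-sided exact permutation tests. The steps were tested on simulated data. Deviations from the group means correlated between libraries of the same replicate number at 0.142 to 0.277 for APP/PS1 and WT, 0.104 to 0.289 for cKO and WT and 0.055 to 0.233 for cKO and APP/PS1. The numbers were therefore taken to pair libraries in the comparisons with WT, from these data and not from the labels, and values with the replicate block are given beside results whose call it changes. Each SE, adjusted p and call comes from the fit without the block unless the block is named.

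Other settings were DESeq2 1.42.0 (size factors, Wald test), limma 3.58.1 (voom, log2 FPKM with a pseudocount of 1 or 0.1, log2 TPM with 1), library totals, no filter on counts, a minimum of 10 counts per library, fits of the compared groups alone, an adjusted p of 0.01, the replicate block, and each library left out. Values per library are given for members with a called change of at least 1.5-fold, for the 2 largest called changes of each class, and for Ulk1, Becn1, Atg5, Atg7, Map1lc3b and Sqstm1. Other pathway genes are named where called with at least a 1.5-fold change, at most 5 per comparison, with Tfeb and Mtor. The members and lists were chosen with earlier results of these data known.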

Additional observations from a re-analysis of the deposited data

How the results depend on the processing

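With length offsets, with or without the replicate block, APP/PS1 against WT gave 0.028 for Ulk2, -0.0075 (-0.008 with the block) for Atg101, -0.42 for Map1lc3a and -0.15 for Gabarap, and cKO against APP/PS1 gave 0.36 for Map1lc3a and 0.28 for Gabarap, all opposite to the values without offsets. Becn1 and Tax1bp1 turned in APP/PS1 against WT with library totals (-0.050 and -0.13), FPKM with a pseudocount of 1 (-0.086 and -0.13) or 0.1 (-0.087 and -0.13) and TPM (-0.34 and -0.38). On the TPM scale the same comparison also turned Atg101 (-0.18), Atg12 (-0.24), Map1lc3a (-0.17), Map1lc3b (-0.20), Gabarapl1 (-0.23), Sqstm1 (-0.16) and Optn (-0.13). TPM turned Ulk2 (0.16), Atg12 (0.14) and Map1lc3a (0.059) in cKO against APP/PS1, and Becn1 (-0.0056), Rubcn (-0.14), Atg2a (-0.15), Atg5 (-0.0018), Gabarapl2 (-0.026) and Tax1bp1 (-0.065) in cKO against WT. Members called with at least a 1.5-fold change numbered 10 on the TPM scale in APP/PS1 against WT, all lower, and 5 in cKO against APP/PS1, all higher. In cKO against WT they numbered 0 with library totals, FPKM (pseudocount 1 or 0.1) and TPM, with Optn at 0.49 with library totals and 0.38 with TPM. With a library left out they numbered 0 to 1, since Optn stood near the limit. The cause of the length trend was not tested.

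In both directions together, the members called were 21 to 33 in APP/PS1 against WT, 18 to 31 in cKO against APP/PS1 and 15 to 21 in cKO against WT, and 23 to 27, 19 to 24 and 16 to 19 with a library left out. By direction they moved further, from 12 to 2 higher and 15 to 31 lower in the first with TPM, from 18 to 29 higher and 6 to 2 lower in the second, and from 10 to 4 higher and 7 to 17 lower in the last. With the replicate block 28, 26 and 21 members were called, against 27, 24 and 17. Calls over all genes rose with it too, from 8670 to 9319 in APP/PS1 against WT and from 8085 to 8851 in cKO against APP/PS1. In cKO against APP/PS1, where the numbers were not taken to pair the libraries although each library correlated best with its own number, the block added Rb1cc1, Atg101 and Atg3 and ended Atg16l2. Beside these and the changes named with the results against WT it changed no member's call. Changes of a few percent in members under 20 CPM were near the spread of these libraries. The difference in LC3 share went from -3.48 to 0.095 points in APP/PS1 against WT and from 3.26 to 0.26 in cKO against APP/PS1 with length-corrected TPM, a setting chosen after seeing the data. FPKM gives the same share as TPM by construction. With estimated counts or without any 1 library it moved by less than 1 SD, though in cKO against WT, at -0.22 points, it was 0.52 with estimated counts and -0.79 to 0.40 with a library left out. Paired by number its exact p was 0.25 in each comparison, the smallest possible.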
